A study of Mus musculus with 6 samples.

Results

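Voltage-gated calcium and sodium channel genes were examined in bulk RNA-seq of the mouse lateral ganglionic eminence (LGE), the embryonic primordium of the striatum, with and without forced expression of the transcription factor *Sp9*. The members are the protein-coding genes whose symbol begins with *Cacna*, *Cacnb*, *Cacng* or *Scn* followed by a digit. Of the 15168 genes listed, 32 fit this rule, and all 32 were among the 15102 genes kept for testing at 0.5 CPM (reads scaled to a common library size) or more in at least 3 libraries. The GENCODE M21 annotation holds 40 such genes. The other 8, *Cacna1s*, *Cacna1f*, *Cacna2d4*, *Cacng6*, *Scn4a*, *Scn4b*, *Scn7a* and *Scn11a*, were not analysed here. *Scn2a*, also known under the older symbol *Scn2a1*, was matched as *Scn2a*.

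The libraries came from the LGE at E16.5, and there were 3 of each genotype. All 6 embryonic samples carried *Dlx5/6-CIE*, a transgene in which *Dlx5/6* regulatory sequence drives Cre recombinase and EGFP. The controls carried this transgene alone. The overexpression group, *Dlx5/6-CIE; Rosa-Sp9-OE/+*, carried in addition 1 copy of a *Rosa26* knock-in in which a CAG promoter is followed by a floxed *LacZ*-STOP cassette and the *Sp9* coding sequence. Cells without Cre therefore made β-galactosidase in place of the extra SP9. Controls were littermates, and the background was mixed. Nothing in the labels says whether a library was 1 embryo or a pool, so each p-value is about the spread of these libraries alone. In bulk tissue, fewer cells of a type and less RNA per cell cannot be told apart.

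Voltage-gated calcium channels open when the membrane depolarises and let in calcium, which triggers transmitter release, shapes firing and signals to the nucleus. Their pore is an alpha1 subunit, with an extracellular alpha2delta subunit and a cytoplasmic beta subunit that help it reach the membrane. Voltage-gated sodium channels carry the rising phase of the action potential, with a pore-forming alpha subunit and beta subunits that adjust gating and adhesion. Members of both families are used by neurons, among them the medium spiny neurons (MSNs) of the striatum. In bulk tissue the reads of a member are not assigned to a cell type.

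The libraries differed in ways that the genotype does not describe. Control replicates 1 and 2 had 2227 and 2191 CPM of *Xist*, the transcript of the silenced X chromosome of females. The other 4 libraries had 1.37 to 2.35 CPM, and in these the Y-linked *Kdm5d* was at 73.7 to 80.6 CPM. Control replicate 3 was thus the only control of the same sex as the overexpression libraries. For some genes, values from these 4 low-*Xist* libraries are given beside those from all 6. An SE from these 4 takes no spread from the controls, since only 1 control is among them. *Sp9* itself was at 129.5, 146.6 and 169.9 CPM in the controls and at 177.9, 268.0 and 304.6 CPM in the overexpression libraries, 149 ± 20.2 against 250 ± 65.2 (SD, n = 3). Its difference was 0.72 on the log2 scale (SE 0.19, limma adjusted p = 0.788, DESeq2 adjusted p = 0.00669). Recovered reads in listed genes ranged from 19410365 to 25126847 per library, and 1 read was worth 0.0391 to 0.0501 CPM.

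Of the 32 channel genes, 25 were higher by value in the overexpression libraries (78.1%), against 50.2% of all genes tested. By limma, on the log2 of CPM with 0.5 added, none had an adjusted p under 0.05 (Benjamini-Hochberg, over all genes tested), where 0.0265% of all genes did. The adjustment gives genes of neighbouring rank a common value, so 0.788 recurs below. The median difference of the 32 was 0.160 on the log2 scale, beside a median of 0.00052 over all genes tested. Before adjustment, 4 members were higher at p under 0.05 (12.5%, against 2.68% of all genes), namely *Cacna1c*, *Cacna1e*, *Cacna1b* and *Cacnb4*. At this level 1 member was lower (3.12%, against 2.84% of all genes). All overexpression libraries were above all controls for *Cacna1c* and *Cacnb3* (6.25%, against 5.46% of all genes) and below them for 1 member (3.12%, against 5.73%). The shares of members without overlap and of members lower at p under 0.05 were thus near or below the background.

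edgeR's quasi-likelihood test on reads recovered from the CPM also called no member, where 0.0331% of all genes passed. DESeq2 on the same reads called 1 member, *Cacna1c* (log2 0.56, adjusted p = 0.0122, within a range of 0.0122 to 0.99998 over all alternatives), where 0.225% of all genes passed.

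**Figure D1:**
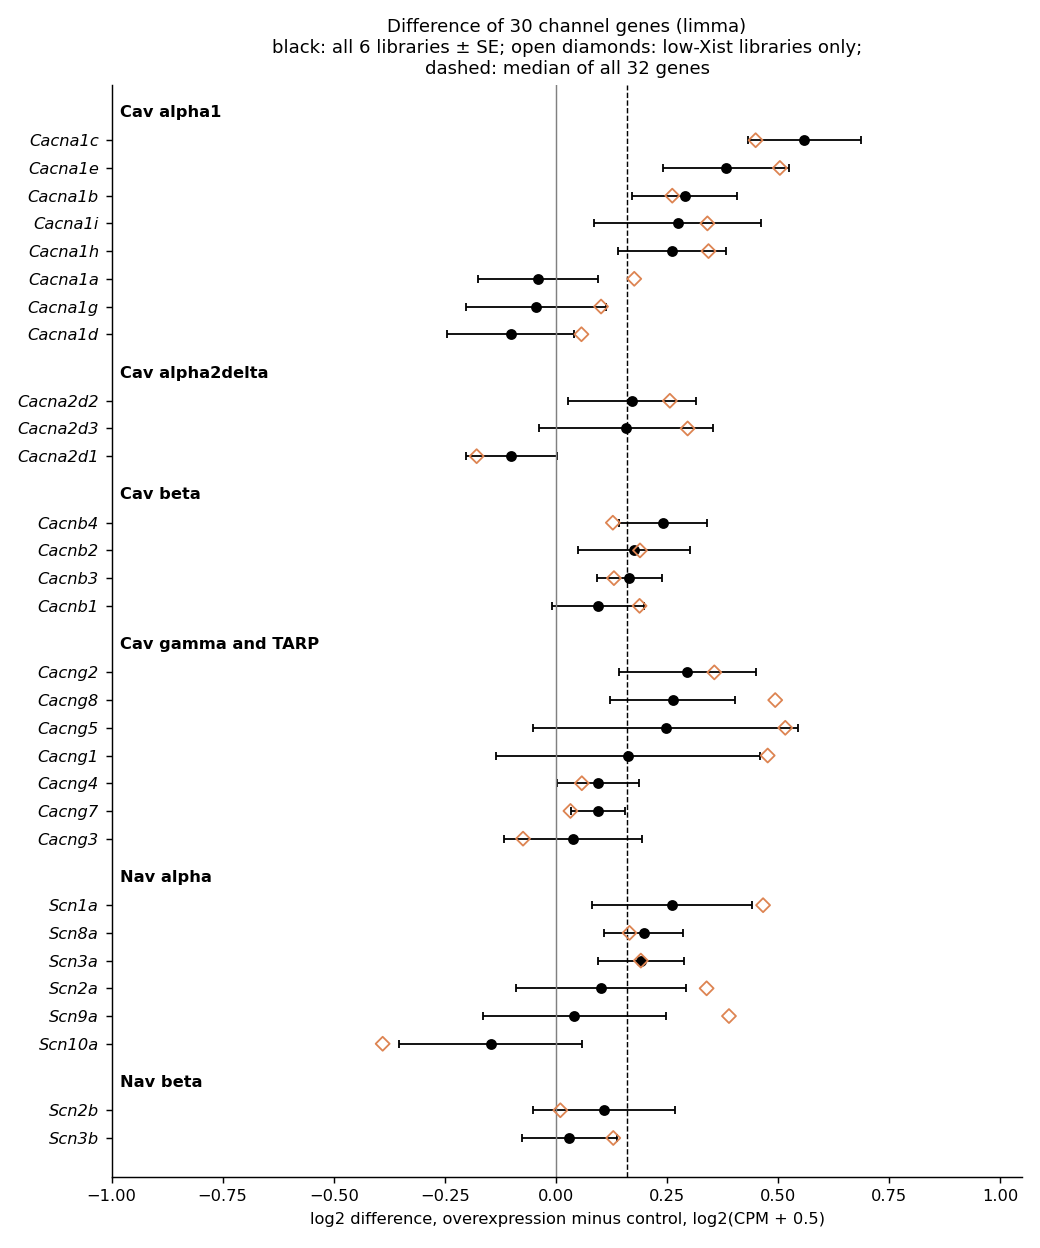
Log2 difference, overexpression minus control, of 30 channel genes on the log2(CPM + 0.5) scale, grouped by subunit class, with black points and bars for the limma estimate ± SE over 6 libraries and open diamonds for the 4 low-*Xist* libraries. Of the black points, 25 lie above 0, from 0.03 to 0.56, and the lowest is *Scn10a* at -0.15.

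Among the pore-forming alpha1 subunits of calcium channels, 5 of 8 members were higher by value and the class median was 0.27 on the log2 scale. *Cacna1c* encodes an L-type pore, known in neurons for coupling electrical activity to transcription. It lies on the minus strand at chr6:118587240-119196418 (GRCm38), a gene body of 609 kb. Its level was 69.4, 54.6 and 69.0 CPM in the controls and 81.3, 94.8 and 109 CPM in the overexpression libraries. The groups did not overlap, and the lowest overexpression library was above the highest control. The means were 64.3 ± 8.44 and 95.1 ± 13.97 CPM (SD, n = 3), a ratio of 1.48. The difference was 0.56 on the log2 scale (SE 0.13, limma adjusted p = 0.788). It ranged from 0.45 to 0.67 with any 1 library left out, and was 0.45 (SE 0.16) in the low-*Xist* libraries alone.

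*Cacna1c* shares chromosome 6 with the knock-in and ends 5.51 Mb from *Gt(ROSA)26Sor*, the noncoding host gene of the *Rosa26* locus. *Gt(ROSA)26Sor* was at 11.8, 13.3 and 14.2 CPM in the controls and at 23.0, 23.2 and 23.1 CPM in the overexpression libraries (log2 0.80, SE 0.09). Its adjusted p was 0.0660 by limma, 0.0483 by edgeR and 6.48e-08 by DESeq2. On chromosome 6 as a whole, 77 of 745 genes had an unadjusted p under 0.05 (10.3%), against 5.52% of all genes. Between *Gt(ROSA)26Sor* and *Cacna1c* the count was 7 of 71 (9.86%), and within 2 Mb of *Cacna1c*, itself not counted, it was 2 of 39 (5.13%). These 2 were *Zfp9*, 0.108 Mb away (log2 0.45), and *Dcp1b*, whose span overlaps that of *Cacna1c* (log2 0.19). Both were higher without overlap of the groups. In either direction, 15.4% of the 39 had no overlap, against 16.8% of chromosome 6 and 11.2% of all genes. Linkage to the knock-in and the overexpression of *Sp9* cannot be told apart for this gene, since all 3 overexpression libraries carried the allele and no control did.

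*Cacna1e*, the R-type pore, was at 148.7, 96.9 and 105.8 CPM in the controls and at 147.1, 148.7 and 154.8 CPM in the overexpression libraries. Control replicate 1 lay within the overexpression range, while the other controls lay well below it. The means were 117 ± 27.7 and 150 ± 4.06 CPM (SD, n = 3), and the difference was 0.38 on the log2 scale (SE 0.14, limma adjusted p = 0.788). Without control replicate 1 the difference was 0.57 with a limma adjusted p of 0.0361, the only member called by limma when 1 library was left out. Over all alternatives its adjusted p ranged from 0.0361 to 0.99998. In the low-*Xist* libraries the difference was 0.50 (SE 0.07). This SE takes no spread from the controls, whose SD over all 3 was 27.7 CPM against 4.06 CPM in the overexpression libraries.

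*Cacna1b*, the N-type pore of presynaptic terminals, was at 86.0, 62.0 and 75.3 CPM in the controls and at 87.5, 84.5 and 99.7 CPM in the overexpression libraries. Control replicate 1 lay between the overexpression values here too (log2 0.29, SE 0.12, limma adjusted p = 0.788). *Cacna1h*, a T-type pore that opens near the resting potential, was at 201.4, 149.7 and 159.3 CPM in the controls and at 187.7, 191.4 and 230.4 CPM in the overexpression libraries. Its groups overlapped through the same control (log2 0.26, SE 0.12, limma adjusted p = 0.788). In the low-*Xist* libraries alone the differences of *Cacna1b* and *Cacna1h* were 0.26 and 0.34. *Cacna1i*, also T-type, was at 3.18 to 5.31 CPM in the controls and 4.45 to 5.25 CPM in the overexpression libraries (log2 0.27, SE 0.19).

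The remaining alpha1 genes were slightly lower by value over 6 libraries. These were *Cacna1a*, the P/Q-type pore (log2 -0.04, SE 0.13), *Cacna1g*, T-type (-0.05, SE 0.16) and *Cacna1d*, the other neuronal L-type pore (-0.10, SE 0.14). In each of the 3, control replicate 1 was the highest library of all, at 34.3, 30.1 and 22.9 CPM respectively. Without control replicate 1 the differences of *Cacna1a*, *Cacna1g* and *Cacna1d* turned to 0.11, 0.08 and 0.07, while without control replicate 2 they stayed below 0. Those of *Cacna1a* and *Cacna1g* also turned without overexpression replicate 3. In the low-*Xist* libraries alone they were 0.18, 0.10 and 0.06, and all 8 alpha1 genes were then higher by value.

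**Figure D2:**
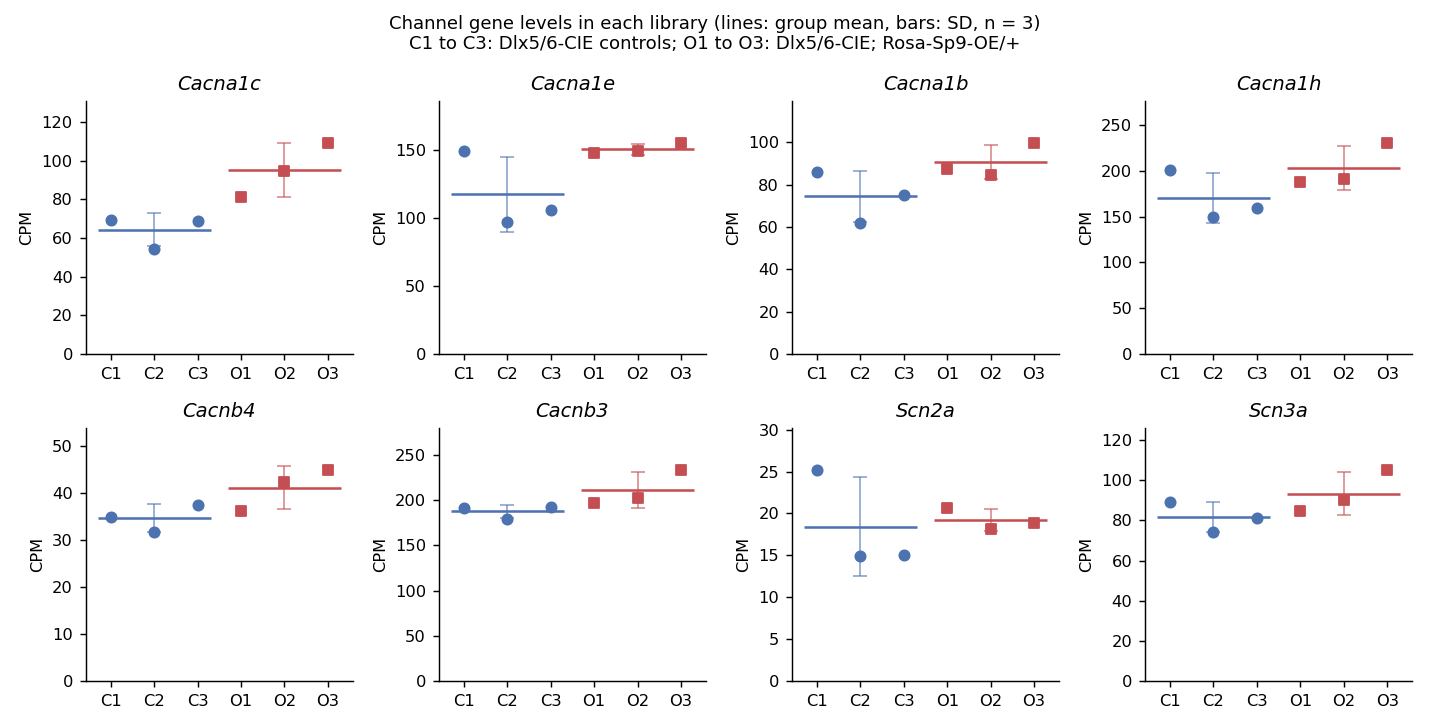
CPM of 8 channel genes in each of the 6 libraries (C1 to C3, controls; O1 to O3, overexpression), with lines for the group means and bars for the SD (n = 3). *Cacna1c* and *Cacnb3* in O1 to O3 lie above every control, while C1 reaches the overexpression range for *Cacna1e*, *Cacna1b* and *Cacna1h* and is the highest library for *Scn2a*.

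The sequences before 3 transcription start sites are shown because *Sp9* belongs to a zinc finger family known for binding GC-rich boxes, and these genes differ in that feature. Each is the 250 bases upstream of the most upstream RefSeq start (GRCm38.p6), with GC boxes (GGGCGG, or CCGCCC for the opposite strand) in capitals. *Cacna1c* was the member with the largest difference, *Cacna1b* was also higher before adjustment, and *Scn2a*, described below, had a small one.
Cacna1c, chr6:119196410-119196659, minus strand: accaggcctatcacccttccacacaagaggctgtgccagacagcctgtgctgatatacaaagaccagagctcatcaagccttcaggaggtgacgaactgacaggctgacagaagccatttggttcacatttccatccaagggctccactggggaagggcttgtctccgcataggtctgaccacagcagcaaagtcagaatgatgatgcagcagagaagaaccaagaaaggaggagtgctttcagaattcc
Cacna1b, chr2:24763153-24763402, minus strand: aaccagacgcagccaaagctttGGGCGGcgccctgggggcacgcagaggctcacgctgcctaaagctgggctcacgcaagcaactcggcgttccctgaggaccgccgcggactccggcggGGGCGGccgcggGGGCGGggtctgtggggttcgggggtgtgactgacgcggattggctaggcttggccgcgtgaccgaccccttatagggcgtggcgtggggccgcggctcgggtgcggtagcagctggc
Scn2a, chr2:65620519-65620768, plus strand: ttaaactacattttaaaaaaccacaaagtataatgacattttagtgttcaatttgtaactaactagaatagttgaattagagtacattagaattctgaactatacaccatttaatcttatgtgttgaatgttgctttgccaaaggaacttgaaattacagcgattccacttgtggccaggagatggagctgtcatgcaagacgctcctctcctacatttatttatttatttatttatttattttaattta

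The *Cacna1b* window held 3 GC boxes and 29 CpG dinucleotides. The windows of *Cacna1c* and *Scn2a* held no GC box and 2 CpG each. A RefSeq window was found for 23 of the 32 members, and 9 of these held at least 1 GC box (39.1%), against 8907 of 27025 windows of all genes (33.0%). The windows of *Cacna1d*, *Cacna1e*, *Cacna2d2*, *Cacnb2*, *Cacng2*, *Cacng3* and *Scn10a* lay wholly in GENCODE M21 exons, all 250 bases of each. That of *Scn1a* did so for 211 bases. Among these, *Cacna2d2* and *Cacnb2* held 1 GC box each. Exon overlap was not counted for the windows of all genes. The median number of CpG was 9 in the members' windows and 6 in all windows. A match describes these letters in this window and is not a binding site.

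Among the auxiliary subunits of calcium channels, all 4 beta subunit genes were higher by value, with a class median of 0.17 on the log2 scale. *Cacnb3*, a neuronal beta subunit, was at 191.9, 179.0 and 192.2 CPM in the controls and at 197.0, 202.4 and 233.6 CPM in the overexpression libraries. The groups did not overlap, but the lowest overexpression library was close to the highest controls (log2 0.17, SE 0.07, limma adjusted p = 0.788). *Cacnb4*, whose loss causes the lethargic phenotype in mice, was at 34.8, 31.6 and 37.4 CPM in the controls and at 36.1, 42.3 and 44.8 CPM in the overexpression libraries. The highest control was above the lowest overexpression library (log2 0.24, SE 0.10, limma adjusted p = 0.788). In the low-*Xist* libraries alone the differences of *Cacnb3* and *Cacnb4* were both 0.13. Of the exon bases of *Cacnb4*, 16.0% also lie in *A430018G15Rik* on the opposite strand, and no source used here states whether counting used strand. *Cacnb1*, the beta subunit also used in skeletal muscle, was at 55.6, 44.0 and 44.8 CPM against 51.6, 46.9 and 55.3 CPM (log2 0.09, SE 0.10). *Cacnb2*, the main beta subunit of the heart, was at 4.58 to 5.67 CPM against 5.67 to 5.92 CPM (log2 0.18, SE 0.13).

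Of the 3 alpha2delta genes, 2 were higher by value. *Cacna2d3* was at 47.4, 26.5 and 30.6 CPM in the controls and at 41.0, 33.6 and 39.0 CPM in the overexpression libraries, which all lay within the range of the controls (log2 0.16, SE 0.20). *Cacna2d1*, which encodes a target of gabapentin, was at 28.2, 29.3 and 31.2 CPM against 29.97, 29.4 and 23.6 CPM, with only overexpression replicate 3 below the controls (log2 -0.10, SE 0.10). *Cacna2d2* was at 18.9 to 22.0 CPM against 18.0 to 26.7 CPM (log2 0.17, SE 0.14).

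The *Cacng* genes encode gamma subunits, most of which act in neurons as transmembrane AMPA receptor regulatory proteins (TARPs). All 7 were higher by value, from 0.04 to 0.30 on the log2 scale, and in all 7 the groups overlapped. *Cacng4* was at 174, 145 and 165 CPM in the controls and at 163, 162 and 193 CPM in the overexpression libraries (log2 0.09, SE 0.09). *Cacng7* was at 113, 113 and 121 CPM against 117, 121 and 132 CPM (log2 0.09, SE 0.06). For both, overexpression replicate 3 was the highest of the 6 libraries and the others intermingled. *Cacng2*, known as stargazin, had the largest value of the class (log2 0.30, SE 0.15, limma adjusted p = 0.788), followed by *Cacng8* (0.26, SE 0.14), *Cacng5* (0.25, SE 0.30) and *Cacng1* (0.16, SE 0.30). *Cacng3* was at 0.04 (SE 0.16), and at -0.07 in the low-*Xist* libraries. *Cacng1*, the gamma subunit of skeletal muscle, was barely detected, at 0.50 to 1.55 CPM in the controls and 0.85 to 1.02 CPM in the overexpression libraries. Of 5 muscle markers only *Myh6* was listed, at 1.74 to 2.11 CPM.

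Of the 7 sodium channel alpha subunit genes, 5 were higher by value and the class median was 0.10 on the log2 scale. *Scn2a*, the alpha subunit of the initial segment of immature axons, was at 25.2, 14.9 and 15.1 CPM in the controls and at 20.6, 18.1 and 18.9 CPM in the overexpression libraries. All 3 overexpression values lay between control replicate 1 and the other controls. The difference was 0.10 on the log2 scale (SE 0.19, limma adjusted p = 0.907) over 6 libraries. It was 0.34 (SE 0.12) in the low-*Xist* libraries and ranged from -0.02 to 0.35 with any 1 library left out.

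*Scn8a*, the main alpha subunit of mature nodes and initial segments, was at 97.3, 82.4 and 92.6 CPM in the controls and at 97.0, 99.3 and 116 CPM in the overexpression libraries (log2 0.20, SE 0.09, limma adjusted p = 0.788). *Scn3a*, the alpha subunit typical of the embryonic brain, was at 89.1, 74.3 and 81.4 CPM against 84.9, 89.97 and 105 CPM (log2 0.19, SE 0.10, limma adjusted p = 0.788). In each, control replicate 1 was just above the lowest overexpression library, and overexpression replicate 3 was the highest of all.

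*Scn1a*, used most by interneurons later in life, was at 13.2 to 21.5 CPM in the controls and 17.2 to 20.1 CPM in the overexpression libraries (log2 0.26, SE 0.18). *Scn9a*, best known from sensory neurons, differed by 0.04 (SE 0.21). The genes *Scn3a*, *Scn2a*, *Scn1a* and *Scn9a* lie within chr2:65457118-66634962, between 6.64 and 7.70 Mb from *Sp9*. The other members on chromosome 2, *Cacnb4*, *Cacna1b* and *Cacnb2*, are 20.6 to 58.3 Mb from it. All 7 were higher by value, against 25 of 32 members and 50.2% of all genes tested, and in each the groups overlapped. *Scn10a*, a subunit of sensory neurons, was at 3.11 CPM or less in every library (log2 -0.15, SE 0.21).

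Among the sodium channel beta subunit genes, *Scn3b*, which encodes a neuronal beta subunit, was at 78.2, 59.7 and 61.6 CPM against 66.6, 72.8 and 63.3 CPM (log2 0.03, SE 0.11). *Scn2b* was at 11.6, 11.2 and 12.7 CPM against 11.1, 11.3 and 16.7 CPM, with only overexpression replicate 3 standing out (log2 0.11, SE 0.16).

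The libraries of a group differed in the level of the channel genes. The median deviation of the 32 genes from their own means over the 6 libraries, on the log2 scale, was 0.15 in control replicate 1, -0.19 in control replicate 2 and -0.12 in control replicate 3. In the overexpression libraries it was 0.055, 0.040 and 0.152. Over all genes tested, each library's median was within 0.008 of 0. Control replicate 1 was thus nearly as high for these genes as overexpression replicate 3, and it was the highest control for 24 of the 32. Control replicate 2 was the lowest of all 6 libraries for 19. Overexpression replicate 3 was the highest of all for 14, and control replicate 1 for 12.

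The median difference of the members depended on these controls. It was 0.25 without control replicate 1 and 0.08 without control replicate 2, and 28 and 19 members respectively were then higher by value. In the low-*Xist* libraries alone it was 0.19, and 27 of 32 members were higher by value (84.4%), against 49.1% of all genes tested there. That comparison rests on 1 control, whose spread is taken to be like that of the overexpression libraries. This control, replicate 3, had the lowest sum of pyramidal neuron markers and the highest sum of cycling progenitor markers of all libraries, as given below.

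**Figure D3:**
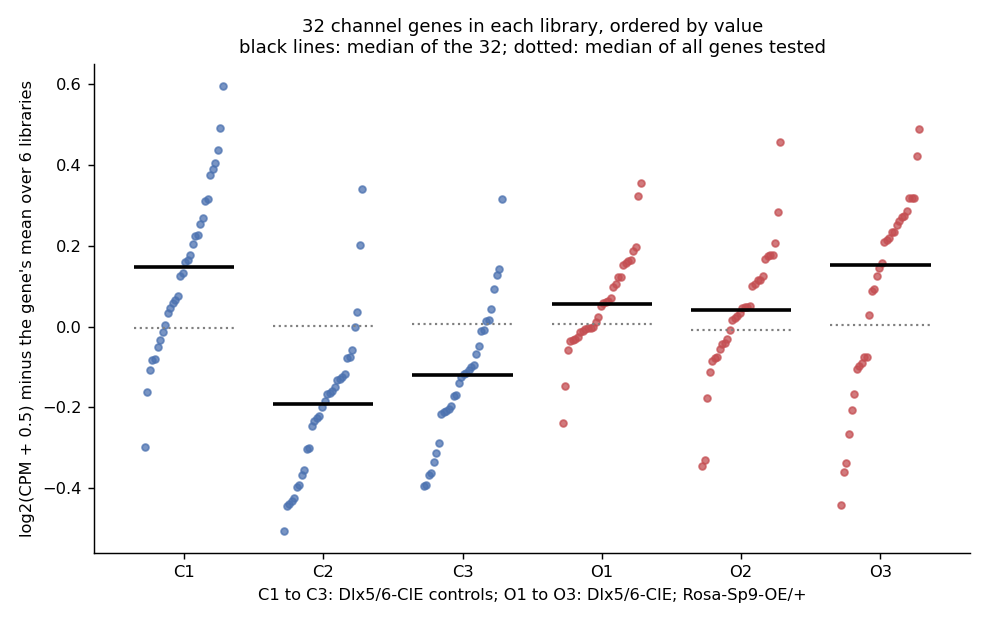
Deviation of each of the 32 channel genes from its own mean over 6 libraries, on the log2(CPM + 0.5) scale, in controls (C1 to C3) and overexpression libraries (O1 to O3). Points are genes ordered by value, black lines are medians of the 32 genes (0.15, -0.19, -0.12, 0.055, 0.040 and 0.152 from left to right), and dotted lines are medians of 15102 genes.

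Cell type markers moved with some of these library differences. The summed level of 8 pan-neuronal markers, all listed, was 4977, 4383 and 4783 CPM in the controls and 4800, 4873 and 5522 CPM in the overexpression libraries, so it was lowest in control replicate 2 and highest in overexpression replicate 3, as were the channel genes. The sum of 14 MSN markers was 2623 to 3137 CPM against 2982 to 3906 CPM with the same extremes. The sum of 6 radial glia markers was highest in control replicate 2, at 2200 CPM, and lowest in overexpression replicate 3, at 1642 CPM. The sum of 6 markers of cycling progenitors was 1313, 1670 and 1823 CPM in the controls and 1484, 1494 and 1494 CPM in the overexpression libraries. Pyramidal neuron markers, 6 of 6 listed, summed to 86.6, 37.2 and 10.4 CPM in the controls and to 35.8, 38.7 and 24.8 CPM in the overexpression libraries. Microglia markers, 5 of 5 listed, summed to 203 to 270 CPM in the controls and to 222, 165 and 59.5 CPM in the overexpression libraries. The sums of interneuron markers (235 to 313 CPM), oligodendrocyte precursor markers (75.8 to 105 CPM), endothelial and mural markers (192 to 225 CPM) and red blood cell markers (1359 to 1679 CPM) overlapped between the groups. Single markers without overlap and with an unadjusted p under 0.05 were *Adora2a*, *Gad1* and *Six3*, higher in the overexpression libraries (log2 1.06, 0.36 and 0.32), and *Drd1*, lower (log2 -1.62). *Six3* was only just without overlap, at 122.53 CPM in control replicate 3 and 122.86 CPM in overexpression replicate 2. Control replicate 1 also stood apart in the globin gene *Hba-a2*, with 388 CPM against 19.8 to 63.8 CPM elsewhere. All 14 MSN markers and all 8 neuronal markers were detected in every library, and their part and that of the other cell types in the channel gene differences was not tested.

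The channel genes are long, with a median gene body of 111 kb against 22.4 kb for the genes tested that had a position in GENCODE M21. Over all genes tested the median difference went from -0.02 on the log2 scale for gene bodies under 10 kb to 0.06 for those of 300 kb or more. The members' medians in the same length ranges were higher, at 0.11 for 7 genes of 10 to 30 kb, 0.09 for 7 genes of 30 to 100 kb, 0.19 for 12 genes of 100 to 300 kb and 0.17 for 6 genes of 300 kb or more. In the low-*Xist* libraries alone, the medians of all genes under 10 kb and of 300 kb or more were -0.008 and 0.105. Those of the members were then 0.13, 0.06, 0.26 and 0.24 in the same order of length. Genes of 300 kb or more also shared the pattern of the controls, with a median deviation of 0.11 in control replicate 1 and -0.15 in control replicate 2.

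**Figure D4:**
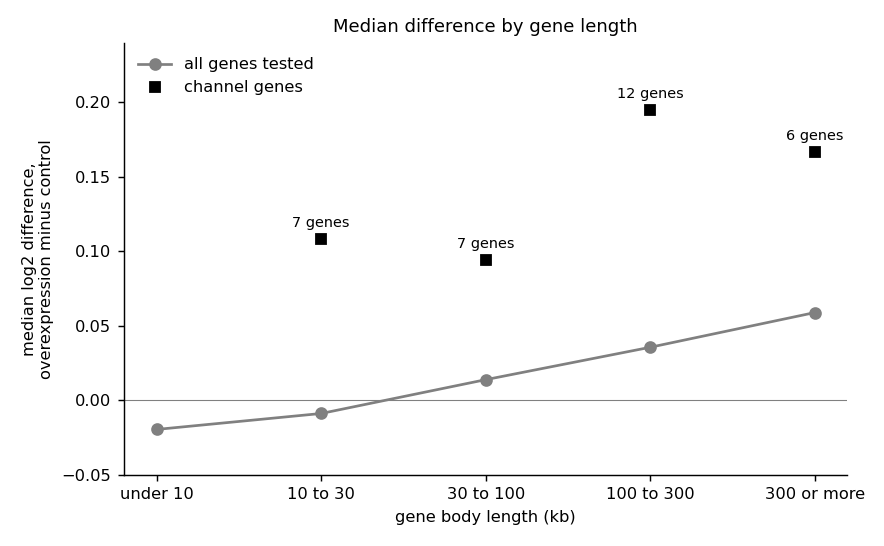
Median log2 difference, overexpression minus control, by gene body length in kb, for all genes tested (grey line) and for the channel genes (black squares, with their number). The grey line goes from -0.02 to 0.06, and the squares lie at 0.11, 0.09, 0.19 and 0.17.

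Levels were compared between genes per kilobase of exon, as a description. In the controls *Cacna1h* led the alpha1 genes at 17.4 ± 2.82 CPM per kb (SD, n = 3), followed by *Cacna1b* at 7.49 ± 1.21, *Cacna1e* at 4.64 ± 1.10 and *Cacna1c* at 3.04 ± 0.398. *Cacna1c*, *Cacna1g* at 2.52 and *Cacna1a* at 2.47 overlapped with their neighbours in this order. *Cacna1d* at 1.44 and *Cacna1i* at 0.416 were lower in every control. This order of the 8 genes was the same in the overexpression libraries.

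Among the accessory genes, *Cacna2d3* at 3.996 CPM per kb in the controls was above *Cacna2d2* at 2.53 and *Cacna2d1* at 2.38, which overlapped. *Cacnb3* at 46.8 was above *Cacnb1* at 10.6, *Cacnb4* at 3.86 and *Cacnb2* at 0.385, with no overlap. *Cacng7* at 47.4 and *Cacng4* at 45.2 overlapped and stood far above *Cacng8* at 5.54. The other 4 *Cacng* genes were between 0.690 and 2.74.

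Of the sodium channel genes, *Scn3a* at 6.55 and *Scn8a* at 5.76 CPM per kb overlapped at the top of the alpha subunits in the controls. *Scn2a* at 1.45, *Scn1a* at 1.44 and *Scn9a* at 1.18 overlapped with their neighbours, and *Scn10a* at 0.326 was below them. *Scn3b* at 12.2 was above *Scn2b* at 2.54.

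**Figure D5:**
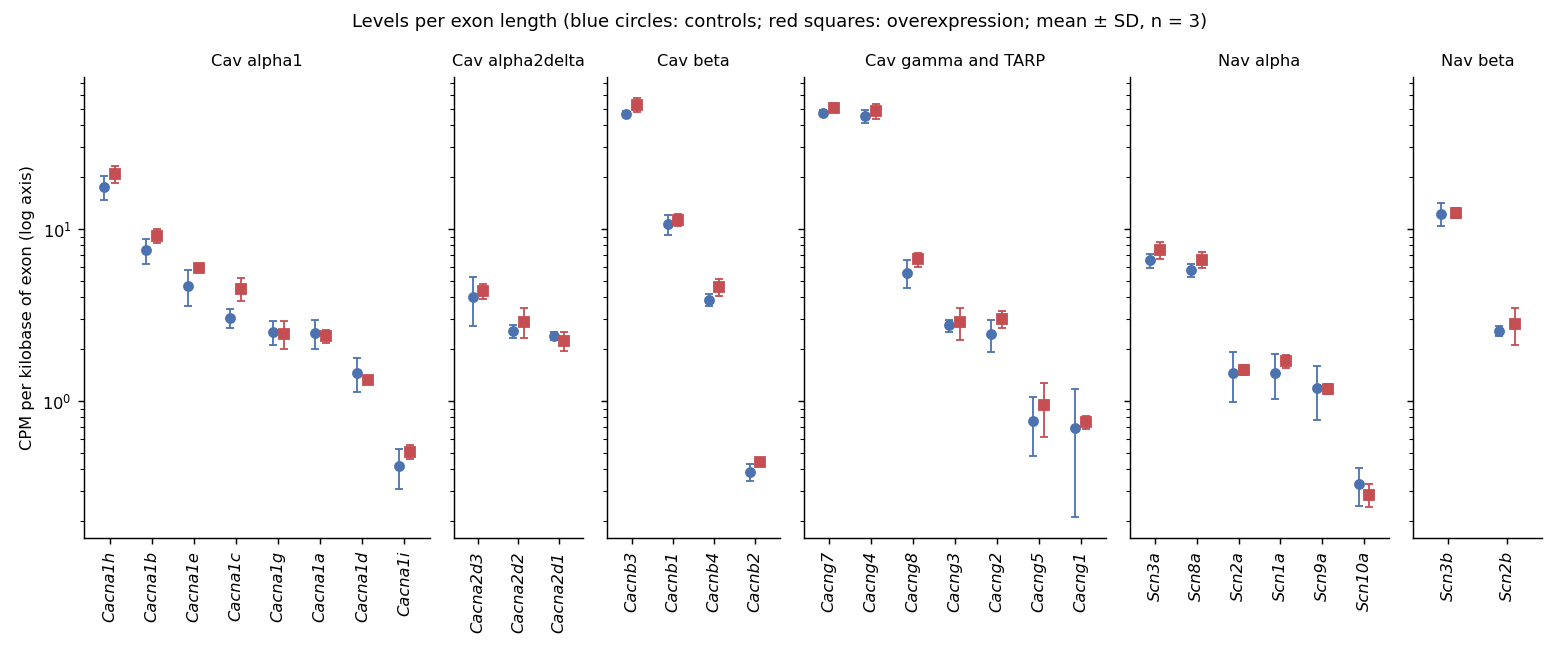
CPM per kilobase of exon (log axis) of 30 channel genes in 6 subunit classes, as mean ± SD over 3 controls (blue circles) and 3 overexpression libraries (red squares). *Cacng7*, *Cacnb3* and *Cacng4* lie highest, between 45.2 and 47.4 in the controls, and *Scn10a* lies lowest at 0.326.

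Genes that work with these channels were read from lists of 45 partners, 43 of which were tested. None passed the adjusted threshold by limma, edgeR or DESeq2, and 2 were higher and 3 lower at an unadjusted p under 0.05 by limma. Over all genes tested these shares were 2.68% higher and 2.84% lower. By value 30 of 43 were higher, against 50.2% of all genes, with a median of 0.09 on the log2 scale. *Stac2*, an adaptor that binds L-type channels, was at 12.8, 10.7 and 15.4 CPM in the controls and at 15.5, 16.2 and 18.7 CPM in the overexpression libraries, just without overlap (log2 0.37, SE 0.14, limma adjusted p = 0.788). *Tnr*, which encodes the matrix protein tenascin-R, known for binding sodium channel beta subunits, was at 35.0, 24.4 and 33.9 CPM against 37.9, 44.7 and 56.0 CPM (log2 0.56, SE 0.17, limma adjusted p = 0.788). In the low-*Xist* libraries alone the differences of *Stac2* and *Tnr* were 0.115 and 0.421. All 12 sodium channel and initial segment partners were listed, and 10 of them were higher by value, with *Ank3*, the organiser of the initial segment, at 0.24 (SE 0.14). The 4 listed genes of the sodium leak channel complex, *Nalcn*, *Unc79*, *Unc80* and *Fam155a*, were at 0.10 to 0.19.

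Of 11 genes of calcium stores and store-operated entry, 3 were lower at an unadjusted p under 0.05 (2.84% of all genes were) and 6 were higher by value. *Orai1*, a pore of store-operated calcium entry, was at 8.17, 8.46 and 7.15 CPM in the controls and at 6.02, 4.71 and 4.34 CPM in the overexpression libraries (log2 -0.62, SE 0.15, limma adjusted p = 0.788). *Orai3*, a related pore, was at 6.97, 6.67 and 7.15 CPM against 5.51, 5.33 and 5.61 CPM (log2 -0.31, SE 0.11, limma adjusted p = 0.788). *Itpr2*, a receptor that releases calcium from the endoplasmic reticulum, was at 12.2, 12.9 and 13.2 CPM against 10.8, 11.3 and 9.05 CPM (log2 -0.29, SE 0.11, limma adjusted p = 0.788). In the low-*Xist* libraries alone the differences of *Orai1*, *Orai3* and *Itpr2* were -0.48, -0.35 and -0.34. In each of the 3 all overexpression libraries were below all controls, as for 5.73% of all genes, while the other 8 genes of calcium stores overlapped. Overexpression replicate 3 was the lowest library for *Orai1* and *Itpr2*, and the highest overexpression library for *Orai3*. The summed microglia markers were lowest in it, and their part in these values was not tested.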

How the data were processed

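The authors prepared stranded total RNA libraries depleted of ribosomal RNA. Per the labels, reads were placed on mm10; the sources used here name no aligner or counter. The authors deposited CPM, 1 value per gene and library for 15168 genes. The paper names FPKM, but within each library 100% of values were whole multiples of 1 step whatever the gene's length, within 5% of a step and rounding, so whole reads were recovered. Columns of the authors' own comparison (a mean log2 CPM, a log2 fold change, a p-value and an adjusted p-value) were not used. All 6 columns of CPM were mapped to samples by their labels.

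Genes that reached 0.5 CPM in 3 or more libraries were compared on log2(CPM + 0.5) by limma 3.58.1 (R 4.3.3; eBayes with a trend on intensity), genotype as the only term, two-sided, Benjamini-Hochberg adjustment over 15102 genes and a threshold of 0.05. A difference on this scale understates the change of low genes. edgeR 4.0.16 and DESeq2 1.42.0 were run on recovered reads as alternatives, and the procedure was tested on simulated data. Replicates differed by more than sampling noise (chi-square per degree of freedom 5.74 to 17.55).

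The members, lists and tests were chosen with earlier results of these data known. Values in every library are given for *Cacna1c* and *Scn2a*, for members whose groups did not overlap or with an unadjusted p under 0.05, and for the 2 with the highest mean CPM in each class. Other members are given by ranges, and some items are not reported here. Positions and exon lengths are from GENCODE M21 (GRCm38), and promoter windows from RefSeq GRCm38.p6.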

Additional observations from a re-analysis of the deposited data

How the results depend on the processing

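Of the 32 channel genes, 21 kept the sign of their difference under every alternative and 11 did not. Genes called over all genes tested numbered 4 by limma, 34 by DESeq2, and 3 to 15 with 1 library left out; they numbered 15 without control replicate 1 and 10 without control replicate 3. Channel genes called numbered 0 by limma, 1 by DESeq2 (*Cacna1c*), and 0 to 1 with 1 library left out (*Cacna1e*). The median difference of the channel genes stayed above 0, from 0.077 to 0.248, with 1 library left out. On the log2 scale, with *Xist* as a covariate and in the low-*Xist* libraries respectively, the sign turned for *Cacna1a* (0.1789 and 0.1763), *Cacna1d* (0.0636 and 0.05745), *Cacna1g* (0.1041 and 0.1016) and *Cacng3* (-0.0926 and -0.07402). *Scn9a* was at -0.00778 by edgeR and -0.004876 by DESeq2. With 1 library left out the sign turned in some of the fits for *Cacna1a* (-0.15 to 0.11), *Cacna1d* (-0.19 to 0.069), *Cacna1g* (-0.14 to 0.11), *Cacna2d1* (-0.16 to 0.0079), *Cacna2d3* (-0.015 to 0.40), *Cacng1* (-0.019 to 0.50), *Cacng3* (-0.11 to 0.15), *Scn2a* (-0.024 to 0.35), *Scn2b* (-0.076 to 0.21), *Scn3b* (-0.042 to 0.15) and *Scn9a* (-0.13 to 0.30). The causes were not tested. *Cacng1* was not kept by a filter at 1 CPM.

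With the replicate number as a block, 3 genes were called over all genes and 0 channel genes, and the median of the channel genes was 0.1604. Libraries with the same number correlated at -0.1035, 0.2023 and 0.08295 in their deviations from the group means, so the numbers were not taken to pair the samples, and not every library correlated best with its own number.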
